A study of Nematostella vectensis with 136 samples.

Results

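Constant darkness was the condition in which 68 of the 136 libraries of this series of adult *Nematostella vectensis*, the starlet sea anemone, were made. All libraries labelled dark:dark (DD) were taken, at 17 time points from T1 to T17, 4 h apart and spanning 0 to 64 h, with 4 replicates lettered A to D at each. Of these, 66 were analysed: T1 replicate D, with 140371 counts, and T4 replicate B, with 2185, fell below 33.3% of the median total and were left out. Whole adult animals had been kept for 1 month in the dark (DD) or under a light:dark cycle (LD), and RNA was then taken every 4 h from both arms. The LD arm, used here only for comparison with 67 libraries, lost its light cycle after the first day. No strain, sex or temperature is used here, and nothing in the labels tells if replicates were single animals or pools, or came from separate cultures. P-values therefore measure the spread between these libraries.

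A rhythm that goes on without light or another time cue is said to free-run, and its own period then need not equal that of the day. In animal clocks, transcription factors of the Clock and Cycle families switch on genes whose products later hold them back, and cryptochromes serve as light sensors or as repressors. *Nematostella* carries genes of these families; its locomotor rhythm can continue in darkness, while transcripts of its clock genes have been known mainly for their cycling under light. The files do not pair gene identifiers with names, and 0 of 24384 identifiers matched the table of names used here. Clock genes could therefore not be picked out, no roles can be given, and genes are written by identifier. For the same reason no marker of a cell type could be checked in these whole animals.

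Totals of the 66 DD libraries ran from 207665 to 749294 counts, with a median of 538007.5, and 9272 genes were tested. Lane 5 of the sequencer held T1 to T12 and lane 7 the later time points, so every fit carried a lane term. Counts of replicates of the same time point differed beyond sampling noise in all 96 pairs, the lowest chi-square being 2.93 for each degree of freedom. Each library was therefore counted once.

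The question was whether gene expression in constant darkness followed a curve with a period near a day. Very few genes passed a test for one, and a gene that did not pass was not shown to lack a rhythm. A cosine with a 24 h period passed the threshold, an adjusted p of 0.05 in edgeR's quasi-likelihood test, in 3 of 9272 genes, or 0.0324% of those tested. At 20 h no gene was called (0%), with 359 genes at an unadjusted p under 0.05 and 0 calls by DESeq2 or limma-voom. There was 1 call at 21 h and 1 at 22 h (0.0108% each), and 2 at 23 h (0.0216%). The count then went up with the period: 16 genes at 25 h and 16 at 26 h (0.173% each), 24 at 27 h (0.259%) and 31 at 28 h (0.334%). The 3 genes called at 24 h were also among the 31 called at 28 h, and 39 genes were called at 1 or more of the 9 periods. Counts also went up with the period in the LD arm. They were 0 of 10126 genes at 20 h, 6 at 24 h and 882 at 28 h. The rise toward 28 h was thus not particular to DD, and its cause in either arm was not tested.

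In DD, genes before adjustment showed the same slope. Those with an unadjusted p under 0.05 made up 3.87% of tested genes at 20 h, 7.57% at 24 h and 11.7% at 28 h. Taking for each gene the smallest of its 9 p-values and correcting for the choice left 6 genes, 0.0647% of those tested. Counts did not stop at the edge of the range: 30 genes were called at 29 h, 33 at 32 h, 4 at 38 h and 21 at 48 h, so 28 h was not a maximum.

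These counts were set beside 100 orders in which time points, each with its libraries kept together, were shuffled within their lane. At 24 h the shuffled orders gave a median of 0 calls, and 30 of the 100 orders gave at least the 3 real calls (permutation p = 0.307, one-sided). At 28 h they gave from 0 to 93 calls, and 12 orders reached 31 (p = 0.129, permutation). The period scan gave 6 genes in the real order and from 0 to 77 in shuffled orders (permutation p = 0.317). The number of genes with an unadjusted p under 0.05 at 28 h, 1085, was reached by 6 orders (permutation p = 0.0693). At 20 h the corresponding 359 genes were reached or passed by 99 of the 100 orders, so the real order lay near the bottom of the shuffled ones. None of 28 counts compared in this way passed after Benjamini-Hochberg adjustment, the smallest adjusted permutation p being 0.554, and the smallest raw p that 100 orders can give is 0.0099.

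**Figure D1:**
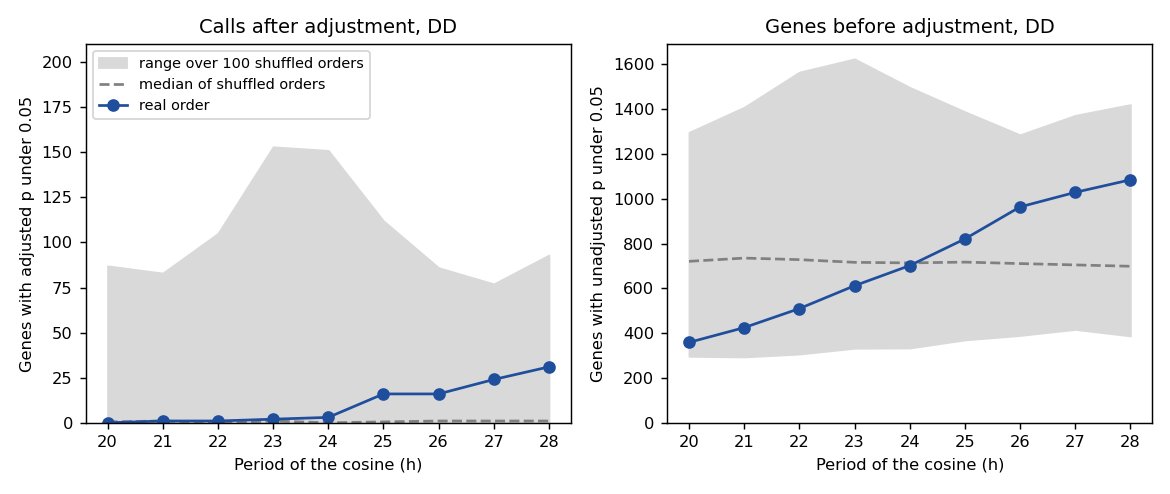
Number of genes (y axis) with an adjusted p under 0.05 (left) or an unadjusted p under 0.05 (right) against the period of the fitted cosine in hours (x axis) in the 66 DD libraries; blue points are the real order, the grey area is the range and the dashed line the median over 100 orders shuffled within lane. The real counts climb from 0 calls at 20 h to 31 at 28 h and stay inside the grey area at every period.

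The period that left the least unexplained deviance was read for each gene. It was 28 h in 3039 genes (32.8%) and 20 h in 1989 genes (21.5%), both ends of the range, and 24 h in 653 (7.04%). For 6906 genes (74.5%) the 95% range of periods took in all of 20 to 28 h. A pile-up at both ends also appeared with shuffled orders, where 1721 to 3163 genes were best at 28 h. Only 1 of 100 shuffled orders put as many genes at 28 h as the real order (permutation p = 0.0198, adjusted 0.554). The sampling limits such a reading: after the lane term, the cosine and sine at 24 h had canonical correlations of 0.816 and 0.73 with those at 28 h, and of 0.612 and 0.53 with those at 20 h.

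**Figure D2:**
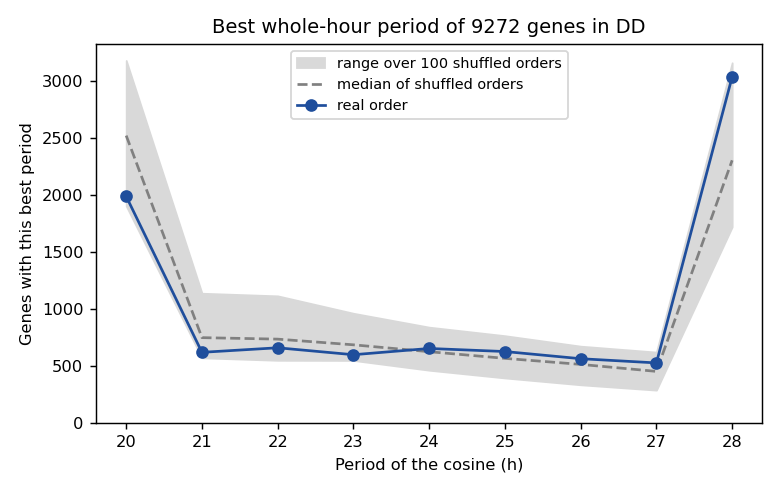
Number of genes (y axis) whose best fit lay at each whole-hour period (x axis, hours) among 9272 genes in DD; blue points are the real order, the grey area is the range and the dashed line the median over 100 shuffled orders. The ends of the range hold 1989 and 3039 genes, and 653 genes were best at 24 h.

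The called genes were of 2 kinds, a division made after their values were seen. In 12 of the 39, over 50% of all counts came from 4 libraries: T2 replicate B (4 h), T8 replicate C (28 h), T9 replicate B (32 h) and T15 replicate A (56 h). Of all 9272 tested genes, 23 (0.248%) were so concentrated. The share held by these libraries in the 12 genes ran from 65.3% to 94.4%, against a median of 6.86% over all tested genes, and 11 of the 12 stood at 0 counts in over 50% of the libraries. T2 and T8, like T9 and T15, lie 24 h apart, while T2 and T9, like T8 and T15, lie 28 h apart. Each of these libraries is 1 of 4 replicates of its time point.

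NVE12713 had the smallest p of the 24 h test. It read 1760 CPM (counts scaled for library size) in T15 replicate A, 786.9 in T9 replicate B, 473.3 in T8 replicate C and 192.9 in T10 replicate A. Every other library held 0 to 2 counts, and 55 of the 66 held 0. At T8, T9 and T15 the other 3 replicates were all at 0 CPM, so the high and low libraries of a time point did not meet. Its adjusted p was 4.98e-06 at 24 h and 0.000313 at 28 h, with a fitted peak 7.63 h into a 24 h cycle and a 95% range of periods from 23 to 26 h. Without any 1 library it stayed called, the highest adjusted p being 0.00151 without T9 replicate B. With the spread within time points as the error, its adjusted p was 1.

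NVE11863 and NVE17219, the other genes called at 24 h, shared the high libraries T8 replicate C, T9 replicate B and T15 replicate A with NVE12713, and were also high in T2 replicate B, where NVE12713 held 1 count. NVE11863 reached 126.4 CPM in T15 replicate A, 111.7 in T9 replicate B, 55.6 in T2 replicate B and 39.2 in T8 replicate C, and was at 0 in 49 of 66 libraries. NVE17219 reached 123.2, 86.9, 97.0 and 63.0 CPM in those libraries and was at 0 in 46. The next highest values were far lower, at 13.0 CPM for NVE11863 and 20.1 CPM for NVE17219. Adjusted p-values at 24 h were 0.00312 and 0.0203. Both calls were lost without T15 replicate A (0.162 and 0.201) and without T9 replicate B (0.126 for each).

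NVE24033 came next in the 24 h test and did not pass it (adjusted p = 0.0525), though it was called at 28 h (0.00376) and in the scan (0.00909). It read 36.1 CPM in T15 replicate A, 30.2 in T2 replicate B, 29.8 in T9 replicate B and 24.1 in T10 replicate A, and 0 in 50 libraries. Its best period was 26 h, with a range of 25 to 28 h, and its scan call was lost without T9 replicate B (0.0908) or T2 replicate B (0.0717). No fitted amplitude is given for these mostly silent genes, since it moves with the prior count.

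**Figure D3:**
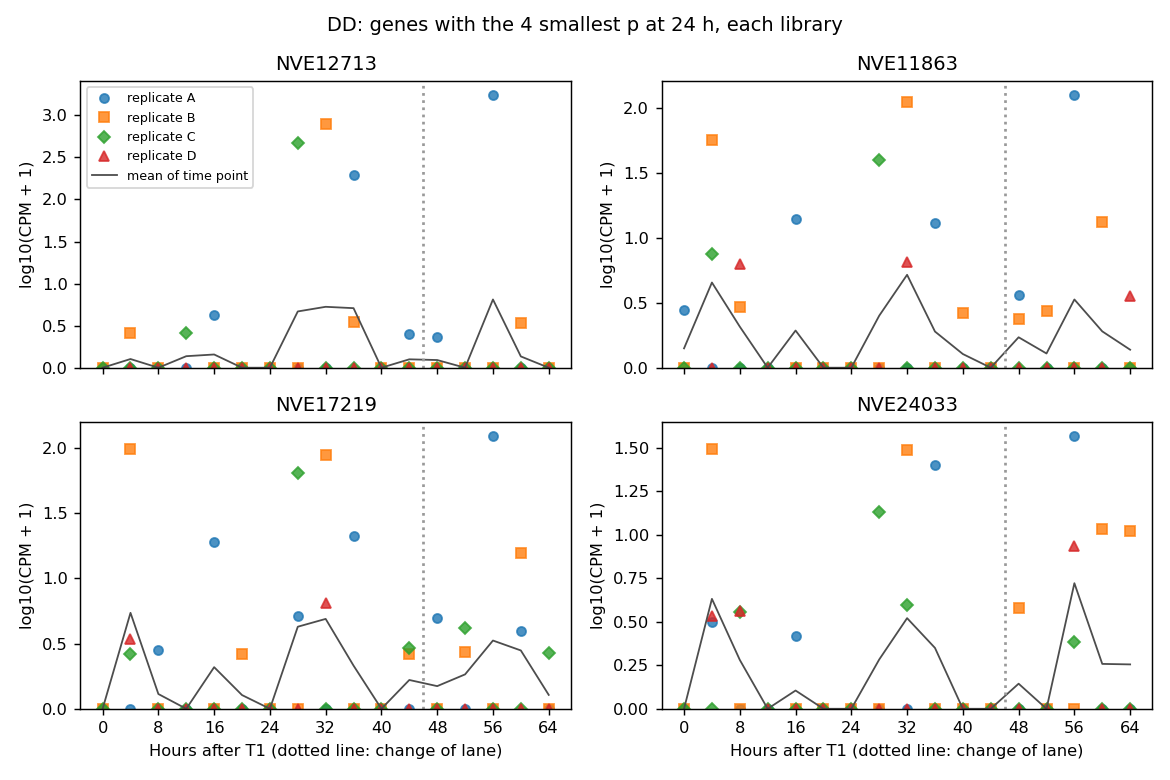
Level of NVE12713, NVE11863, NVE17219 and NVE24033 as log10(CPM + 1) (y axis) in each of the 66 DD libraries against hours after T1 (x axis); symbols are replicates A to D, the line joins time point means and the dotted line marks the change of lane. The highest values belong to single libraries at 4, 28, 32, 36 and 56 h, beside replicates at 0 or at no more than 7.64 CPM. Lower single values include NVE17219 at 17.9 CPM at 16 h and 14.7 CPM at 60 h.

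Without those 4 libraries, 1 gene was called at 24 h, NVE20499, and 12 genes were called at 28 h. The 3 genes reported above were too low in the remaining libraries to pass the expression filter, so they were not tested there. NVE20499 was itself among the 12 concentrated genes. It held 68.3% of its counts in the 4 libraries and was at 0 in 45 of 66. Leaving out every replicate B gave 0 calls at 24 h (edgeR), and so did fits in which 17 time point means were the units, or the spread within time points was the error (504, 456 and 764 genes at an unadjusted p under 0.05).

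The other 27 called genes were detected in most libraries, 24 of them in all 66 and NVE6036 at 0 in 7, with median levels between 5.19 and 6532 CPM in the 26 of them called at 28 h. Their changes were small: the fitted amplitude at 28 h, the height of the crest above the mean on the log2 scale, ran from 0.17 to 1.27 with a median of 0.43. In 21 of the 26 the crest fell between 4 and 10 h of the 28 h cycle, which puts it also at the very end of sampling. In 20 of the 26 the time point with the highest mean was T16 or T17, compared with 1539 of all tested genes (16.6%). The best period was 28 h, the edge of the range, in 19. Library totals also differed along the series, and were mostly lower at T9, T10, T16 and T17 than at T14 and T15. They ran from 266400 to 437062 counts at T16, 362229 to 581205 at T17, 207665 to 419440 at T9 and 322760 to 505964 at T10. At T14 they ran from 603380 to 683251, at T15 from 537260 to 683359 and at T13 from 323477 to 749294. The part of depth in the 28 h fits was not tested.

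NVE16955 had the smallest scan p among these. Its 4 libraries read 376, 430, 837 and 736 CPM at T16 (60 h) and 847, 733, 419 and 606 CPM at T17 (64 h), with means of 594.6 ± 226.3 and 651.4 ± 183.6 (SD, n = 4). A 28 h period puts earlier crests near T10 and T3. At T10 (36 h) the mean was 367.9 ± 88.0 CPM, but at T3 (8 h) it was 168.3 ± 36.4, lower than the 234.8 ± 46.9 (n = 3) of T1. The crest of the last cycle was thus the highest of the series and the first was no high point. The amplitude at 28 h was 0.55 ± 0.09 (SE), with an adjusted p of 0.00183 at 28 h and 0.00909 in the scan, and the range of periods was 27 to 28 h. It was not called at 24 h (adjusted p = 0.142). Without any 1 library it kept its scan call, the highest adjusted p being 0.0351 without T17 replicate A. With T1 to T12 alone its adjusted p in the scan was 1. Its 24 h component was alike in the arms, with an amplitude of 0.41 in DD and 0.48 in LD. The fitted peaks lay at 13.2 h in DD and 13.4 h in LD.

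NVE23143, an abundant gene, was the only other steadily expressed gene of the 6 called in the scan (adjusted p = 0.0208) and is named after its values were seen. Its mean was 5474 ± 301 CPM at T6, 8029 ± 712 at T9, 5870 ± 924 at T13, 8324 ± 370 at T16 and 8453 ± 1245 at T17 (SD, n = 4). It was thus high at T9 as well as at the end of sampling. In LD its mean was also high late, at 10580 ± 2036 CPM at T16 and 8103 ± 565 at T17, and at 8763 ± 568 at T10. At T6 and T13 the LD means were 6666 ± 1313 and 6881 ± 658.

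NVE7148, NVE6036 and NVE18057, known from earlier results of these data, were also called at 28 h, with adjusted p-values of 0.0259, 0.0298 and 0.0298. NVE7148 stood at 1383 CPM in T17 replicate A and at 73.5, 65.1 and 38.9 CPM in the other replicates of that time point. NVE6036 stood at 300.3 CPM there, with 11.9, 20.03 and 2.59 CPM beside it. Those 2 genes owed their highest time point to 1 library, and without it their adjusted p at 28 h was 0.251 and 0.463. Both also lost the call without T13 replicate D (0.0542 each), and NVE6036 without T14 replicate A (0.0528). NVE18057 was spread more evenly, at 190.7 CPM in T16 replicate D and 187.3 CPM in T17 replicate A against a median of 44.7, and lost its call without T17 replicate A (0.0877), T10 replicate C (0.0642), T13 replicate D (0.0542) or T16 replicate D (0.0527).

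The count at 28 h leaned on the same late libraries. It was 4 genes without T16 and T17, 3 with T1 to T12 alone and 6 without T17 replicate A. Leaving out 1 library at a time moved it between 6 and 53 genes, and the count at 24 h between 1 and 21, the last without T5 replicate A.

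Among genes whose best period was 20 to 22 h, none passed the threshold of the scan in edgeR. NVE5952, with a best period of 22 h, reached an adjusted p of 0.174 in the scan; it was at 0 in 33 of 66 libraries and highest at 28.1 CPM in T10 replicate A, the other T10 replicates being at 0. NVE13725, with a best period of 20 h, had an amplitude there of 0.34 ± 0.08 and an adjusted p of 0.39 in the scan.

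More genes were called for any change over time than for any of these curves. A test of any difference among time points within lanes, with 15 degrees of freedom, called 116 genes (1.25%), and 12 of the 31 genes called at 28 h were among them. NVE24475 and NVE10468 had the smallest p, each with an adjusted p of 2.29e-05 in edgeR. Neither was called at 24 h, where their adjusted p-values were 0.924 and 0.652.

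NVE24475 jumped between neighbouring time points. Its mean was 63.1 ± 12.8 CPM at T9, 33.2 ± 11.5 at T10, 59.9 ± 10.6 at T11, 67.2 ± 12.0 at T12, 34.1 ± 5.48 at T13 and 61.7 ± 6.52 at T14 (SD, n = 4). The 4 libraries of T14, from 55.2 to 69.9 CPM, lay above those of T13, from 29.2 to 41.8 CPM, and both time points are on the same lane. NVE10468, named in earlier results, peaked at T6 with 675.4 ± 312.7 CPM, was at 320.7 ± 312.7 at T10, stayed at means of 17.5 to 28.9 CPM from T11 to T14 and read from 83.0 to 583 CPM at T17. Replicates of a high time point ranged widely, from 376 to 954 CPM at T6.

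**Figure D4:**
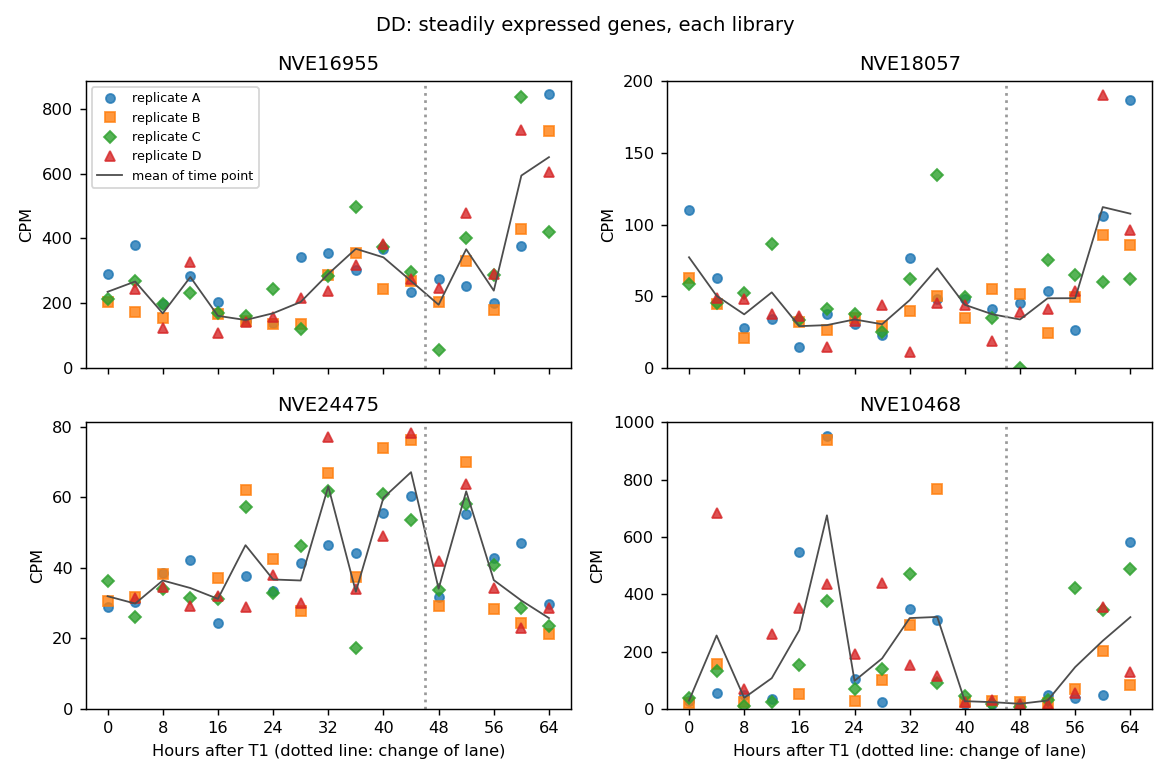
Level in CPM (y axis) of NVE16955, NVE18057, NVE24475 and NVE10468 in each of the 66 DD libraries against hours after T1 (x axis); symbols are replicates A to D, the line joins time point means and the dotted line marks the change of lane. NVE16955 and NVE18057 are highest at 60 and 64 h, while the highest means of NVE24475 and NVE10468 lie at 44 and 20 h.

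To see whether a curve carried on into the next cycle, genes were ranked by their 24 h curve over T1 to T6 and measured over T7 to T12, in other libraries of the same lane. The 100 top genes had a median amplitude of 0.59 over T1 to T6. Their component at the phase carried forward had a median of -0.01 on the log2 scale over T7 to T12, and was positive in 49 of the 100. Over all tested genes it was positive in 49.5%. At 24 h the reverse choice, over T7 to T12 and measured over T1 to T6, gave a positive component in 56 of the 100. A choice over T1 to T12 was measured over T13 to T17, on the other lane. It gave a median of 0.05 in the top 100, positive in 55 of them, against 51.9% of all genes. In the top 50 the median was 0.16, positive in 33 (66%). Carried forward from T1 to T6 with a 20 h period the median was -0.07, and with a 28 h period 0.06, positive in 64 of the 100 against 56.2% of all genes. Neither T1 to T6 nor T7 to T12 alone gave a called gene in edgeR, with 539 and 859 genes at an unadjusted p under 0.05. The projection at 24 h is a description with no test, and single genes ranged from -1.36 to 1.45.

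Genes called for a 24 h component under light gave a set chosen in other libraries. In the LD arm, a 24 h component over T1 to T6 was called in 18 of 8083 genes (0.223%), with a median amplitude of 1.55. Of these, 17 could be tested in DD, and none reached an unadjusted p under 0.05 at 24 h there in edgeR, compared with 7.57% of all genes. DESeq2 gave 1 such gene and limma-voom 0. With T7 to T17 alone 4 of 14 did, against 9.91% of all genes, and 2 of 17 did with T1 to T12 alone, without replicate A or without replicate D. Their amplitude in DD had a median of 0.21 and ran from 0.07 to 0.81, while all tested genes had a median of 0.13, which 14 of the 17 exceeded. Over the first DD day, T1 to T6, their median amplitude was 0.52, against 0.19 over all tested genes. The largest values belonged to NVE11188, NVE241 and NVE26091, at 0 in 46 to 55 of 66 DD libraries. All tested genes were not matched to this set for level or spread. Those within its range of mean levels had a median amplitude at 24 h in DD of 0.132. With 1 LD day, a cycle and a single change look alike.

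NVE8107, NVE5408 and NVE24652 were LD-called genes named after their values in both arms were seen, so their differences between arms are descriptions. NVE8107 rose in LD to 70.3 ± 23.3 CPM at 16 h from 4.15 ± 3.38 at 4 h (SD, n = 4). In DD its means stayed between 8.76 ± 3.70 CPM at 12 h (n = 3) and 22.5 ± 7.66 CPM at 16 h (n = 4). All 4 LD libraries at 16 h, the lowest at 44.1 CPM, lay above the highest DD library of the whole series, at 33.6 CPM. NVE5408 stood at 414.7 ± 73.2 CPM in LD at T1 and at 71.8 ± 26.8 in DD (n = 3), and its DD means ranged from 53.9 to 116.7 CPM over all time points. NVE24652, too low in DD alone to be tested there, was at 68.3 ± 35.3 CPM in LD at T1 and at 1.95 ± 2.01 CPM in DD (n = 3). The difference of the components over T1 to T17 was 0.95 ± 0.20 for NVE8107 and 0.78 ± 0.17 for NVE5408 on the log2 scale (SE). No p-value of these genes is taken as support, since the LD libraries that chose them are in the comparison. NVE24652 entered the comparison only through its LD level. Their adjusted p-values among all genes also moved with the setting. Without replicate D, left out of both arms, the adjusted p in edgeR was 0.224 for NVE8107, 0.17 for NVE5408 and 0.224 for NVE24652. Without T2 replicate B, T8 replicate C, T9 replicate B and T15 replicate A it was 0.136, 0.271 and 0.0634, and in limma-voom it was 0.923 for each. Such values depend on the other genes tested too: without those 4 DD libraries 1 gene was called between arms, against 37 with them. With a linear trend in the fit, the difference of NVE5408 was 0.28.

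**Figure D5:**
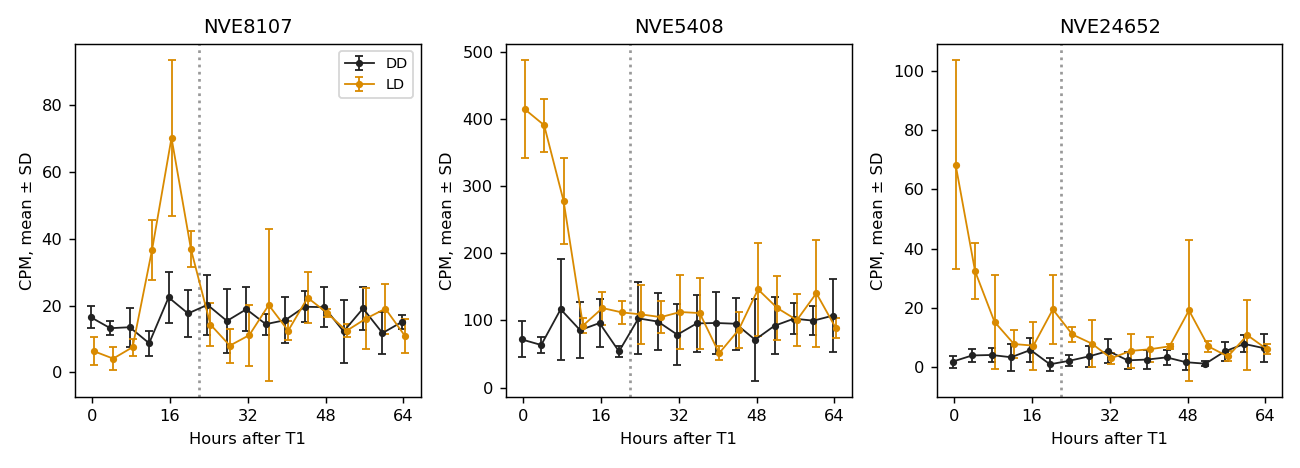
Mean CPM ± SD (y axis; 3 or 4 libraries per point) of NVE8107, NVE5408 and NVE24652 against hours after T1 (x axis) in DD (black) and LD (orange); the dotted line marks the end of the LD light cycle. The LD peak of NVE8107 at 16 h, at 70.3 CPM, and the early LD levels of NVE5408 and NVE24652 have no counterpart in DD.

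Of the 4 LD-called genes with the largest amplitudes, NVE11188, NVE241 and NVE26091 were at 0 in 46 to 55 of the 66 DD libraries and NVE538 in 23. NVE11188 was at 0 in 55 of 66 DD libraries and reached 106.2 CPM in T5 replicate B, 83.0 in T12 replicate A and 45.95 in T3 replicate A. NVE241 was highest in those libraries too, at 99.5, 67.9 and 58.8 CPM. T5 and T12 are 28 h apart, and the adjusted p at 28 h was 0.14 and 0.264.

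Across all genes, the 24 h component differed between DD and LD in 37 of 10648 genes (0.347%). Only 28 of the 37 were high enough to be tested in DD alone, so 9 entered through the joint filter on both arms. In 25 of the 37, over 50% of the DD counts came from the 4 libraries T2 replicate B, T8 replicate C, T9 replicate B and T15 replicate A, against 36 of all 10648 genes (0.338%). Adjusted p-values in edgeR were 3.10e-07 for NVE12713, 5.04e-05 for NVE11863 and 6.68e-05 for NVE17219; which arm had the larger amplitude is not given, since fitted amplitudes of such genes move with the prior count. NVE12713 had its DD peak at 7.63 h and its LD peak at 19.9 h, but in LD it was at 0 in 54 of 67 libraries and high in T1 replicate D (1259 CPM) and T11 replicate C (959.7 CPM). NVE17218 and NVE18479 both had an adjusted p of 0.000201. On the scale of both arms, NVE17218 reached 622.7 CPM in LD T6 replicate D and 322.5 CPM in DD T9 replicate B, and NVE18479 reached 324.4 and 177.9 CPM in LD T6 replicate D and DD T15 replicate A. Without the 4 DD libraries, 1 gene differed between arms, NVE12713. In DD that gene then stood at 192.8 CPM in T10 replicate A, with the next highest DD library at 3.27 CPM. With all libraries, its adjusted p for the difference between arms was 0.923 in limma-voom.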

How the data were processed

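Per the labels, whole-animal RNA was sequenced; the authors deposited raw counts for 24384 genes, made with Bowtie2 per the submitters' processing notes against the Putnam et al. genome. No source used here gives versions, the counting tool, strand setting or shared-read handling, so counts of near-identical or overlapping genes are uncertain. Columns were matched to samples by title. Genes were kept by filterByExpr, scaled by TMM and fitted in edgeR 4.0.16 (R 4.3.3; limma 3.58.1, DESeq2 1.42.0) with lane, cosine and sine, periods 20 to 28 h, Benjamini-Hochberg threshold 0.05. The SE of an amplitude is the amplitude over the square root of 2F. The dispersion trend came from the 17 time points as groups. Fits were tested on simulated data. Named genes had a mean log2 CPM of at least 2: the 4 largest amplitudes or smallest p at 24 h, and 2 per group of periods, per arm direction and in any shape, the 4 largest LD amplitudes, and 4 genes of earlier results. Members, lists and rules were chosen with earlier results of these data known. Totals limit the precision; alternatives are in the closing section.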

Additional observations from a re-analysis of the deposited data

Results flagged for a closer look

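Single DD libraries stood far from the other 3 replicates of their time point, with a gap larger than Dixon's limit, in 19 of 36 groups checked, the 2 time points with the highest mean of each of 18 named genes. These groups were picked for a high mean, so the rate of about 1 in 20 that chance gives in groups not so chosen cannot be set beside this count. T15 replicate A was the high one for NVE12713 (1760 CPM), NVE11863 (126.4 CPM), NVE17219 (123.2 CPM) and NVE18479 (175.7 CPM). T9 replicate B was the high one for NVE12713 (786.9 CPM), NVE11863 (111.7 CPM), NVE17218 (322.7 CPM) and NVE18479 (161.4 CPM). T2 replicate B was high for NVE24033 (30.2 CPM) and NVE17219 (97.0 CPM), T8 replicate C for NVE17218 (141.4 CPM) and T10 replicate A for NVE5952 (28.1 CPM). T5 replicate B was high for the LD-called genes NVE11188 (106.2 CPM), NVE241 (99.5 CPM), NVE26091 (40.5 CPM) and NVE538 (48.9 CPM), and T12 replicate A for NVE11188 (83.0 CPM). T17 replicate A was high for NVE7148 (1383 CPM) and NVE6036 (300.3 CPM). The total of T4 replicate B, 2185 counts, lay far below the others of T4, the nearest of which was 520432.

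Some named genes had a different 24 h component in DD and LD. They were named by this comparison or by fits to libraries within it, so their listing here is no further support. The length of the difference on the log2 scale was 8.55 for NVE12713, 4.90 for NVE11863, 4.75 for NVE17219, 4.42 for NVE17218, 4.33 for NVE18479 and 3.72 for NVE24033, fitted values that depend on the prior count because most libraries are at 0. It was 0.95 for NVE8107, 1.74 for NVE24652 and 0.78 for NVE5408, genes chosen in part on the same LD libraries. The cause of these differences was not tested.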

How the results depend on the processing

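Each time point had 3 or 4 libraries of 207665 to 749294 counts, and how far depth limited the results was not tested. Against 0 genes at 20 h, 3 at 24 h, 31 at 28 h and 6 over the scan, no filter beyond 1 count gave 1 at 20 h and 11 at 24 h; at least 10 counts in 50% of the libraries gave 0 at 24 h and 2 over the scan; DESeq2 gave 1 at 24 h and 55 at 28 h, and limma-voom 0 at 24 h, 7 at 28 h and 0 over the scan. The filter for at least 10 counts in 50% of the libraries removed the 3 genes called at 24 h before testing. They were at 0 in 46 to 55 of 66 libraries. Without a lane term there were 1 at 20 h, 8 at 24 h and 15 at 28 h, and with a linear trend 1 at 20 h. T1 to T12 alone gave 1 at 20 h, 1 at 24 h, 3 at 28 h and 0 over the scan, T7 to T17 alone 19 at 24 h and 13 over the scan, and all 68 libraries 5 at 24 h. The spread within time points as error gave 0 at 24 h and 1 over the scan, and time point means as units 0, 1 at 28 h and 0 over the scan. Without T5 B, T12 A and T17 A there were 5 at 28 h. Chosen after seeing the data, the fit without T2 B, T8 C, T9 B and T15 A gave 1 at 24 h, 12 at 28 h and 3 over the scan, that without T16 and T17 gave 4 at 28 h and 3 over the scan; the planned scan from 16 to 32 h gave 10. Without T2 B, T8 C, T9 B and T15 A, the 3 genes called at 24 h did not pass the expression filter and were not tested. Leaving out the replicates of a letter moved the counts from 0 to 2 at 20 h, 0 to 13 at 24 h, 3 to 15 at 28 h and 0 to 10 over the scan, those in any shape from 8 to 44, and those between arms from 4 to 39. In any shape DESeq2 called 354 against 116. Between arms, 37 became 56 with no filter, 0 with at least 10 counts in 50% of the libraries (366 at an unadjusted p under 0.05), 8 with DESeq2, 0 with limma-voom (553 unadjusted) and 1, NVE12713, without the 4 libraries. Between arms, NVE12713 could not pass the stricter filter, being at 0 in 55 of 66 DD and 54 of 67 LD libraries. The component carried to the second cycle ranged from -0.182 to 0.0343 without 1 letter. The median amplitude of LD-called genes, 0.21, ranged from 0.188 to 0.295 without 1 letter, and was 0.16 both with the stricter filter and with time point means. The replicate block gave 10 genes at 24 h and 14 at 28 h, and 0, 7, 118 and 34 at 20 h, over the scan, in any shape and between arms; the labels do not say what a letter marks, and after time point means were removed libraries of the same letter had a mean correlation of 0.0108 (lowest -0.174), those of other letters -0.00359, and 32 of 66 correlated best, on average, with their own letter, a hint of pairing from the data and not from the design. In the shuffled test, 41 orders reached the 24 h count without T5 B, T12 A and T17 A, against 30 with all libraries. The causes were not tested.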
